A study of Mus musculus with 6 samples.

Results

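YTHDC1 is a nuclear protein that reads N6-methyladenosine (m6A), a methyl mark on messenger RNA, and is known for roles in exon inclusion and in the export of mRNA from the nucleus. In muscle, satellite cells are the resident stem cells that leave quiescence after injury and proliferate as myoblasts. The 8 genes examined here are those that the study drew or assayed as bound splicing or export targets of YTHDC1 in these cells. Lrp8 and Palb2 were its splicing targets assayed by RT-PCR in satellite cells, Fgd1 and Urb2 its export targets in satellite cells, Dnajc14 and Exo1 its export targets in C2C12, and Tiparp and Btbd7 its m6A-marked export targets in C2C12. They are 8 of 22380 annotated protein-coding genes, and each matched exactly 1 gene of the mm9 annotation. Because the study chose them from these same libraries, the presence of a peak in them is no finding, and the account concerns where the peaks lie, on which strand, on what sequence and in which libraries.

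LACE-seq crosslinks a protein to its RNA with ultraviolet light, pulls it down with an antibody, here against YTHDC1, and reads the positions where reverse transcription stops. All 6 libraries were labelled wild type. Of these, 4 came from satellite cells activated in culture for 48 h (ASC-48h), as biological replicates B1 and B2 with technical replicates T1 and T2 each, and 2 came from C2C12, an established mouse myoblast line kept in growth medium (replicates 1 and 2). The labels number the C2C12 libraries as biological replicates and the study's text calls them technical, so an SD over them (n = 2) may measure technical spread only. The strain and age of the mice that gave the satellite cells are not in the labels, and no control pull-down was analysed here. Lists of bound positions hold no expression level, so the cell labels were not checked against marker genes.

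The libraries held 7925 to 19448 peaks in ASC-48h and 60540 and 71992 in C2C12, each peak being 1 or more 20-nt bins with a number of reads per bin. The lowest number listed was 4 or 5 reads per bin in the ASC-48h libraries and 6 in C2C12, so a gene without a peak may still have had reads below it. Total reads per library are unknown, and for that reason no level was compared between the cell types. The means, SDs and orderings of replicates below use reads per bin not normalized for depth, so they include any difference of depth between libraries. In these files, reads from a gene's own RNA lie on the strand opposite to the gene: of 20096 C2C12 peaks found in both replicates and inside exactly 1 protein-coding gene, 18382 lay opposite to it (91.5%, exact Clopper-Pearson 95% interval 91.1 to 91.9). That side is called the RNA strand below. Intervals cover counting error across peaks only, and peaks are not replicates.

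A peak was called shared in C2C12 when a replicate 1 peak overlapped a replicate 2 peak, and shared in ASC-48h when it was found in T1 and T2 of B1 and in T1 and T2 of B2. The 8 genes held 21 C2C12 shared peaks, in 7 of the 8 genes, where 25.5% of all protein-coding genes held at least 1. On the RNA strand alone, 20 shared peaks in the same 7 genes remained, against 21.9% of all genes. In ASC-48h the genes held 4 shared peaks, 1 each in Lrp8, Palb2, Fgd1 and Urb2, where 4.05% of all protein-coding genes held at least 1. On the RNA strand, ASC-48h shared peaks were found in 2 of the 8 genes, Palb2 and Urb2, against 2.47% of all genes. The members have a median length of 28809 nt against 15421 nt for all protein-coding genes. Among the 9263 genes in their length range the corresponding shares were 30.8% and 26.8% in C2C12 and 4.24% and 2.63% in ASC-48h. Nothing is read from these counts, since the list was made from bound genes.

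**Figure D1:**
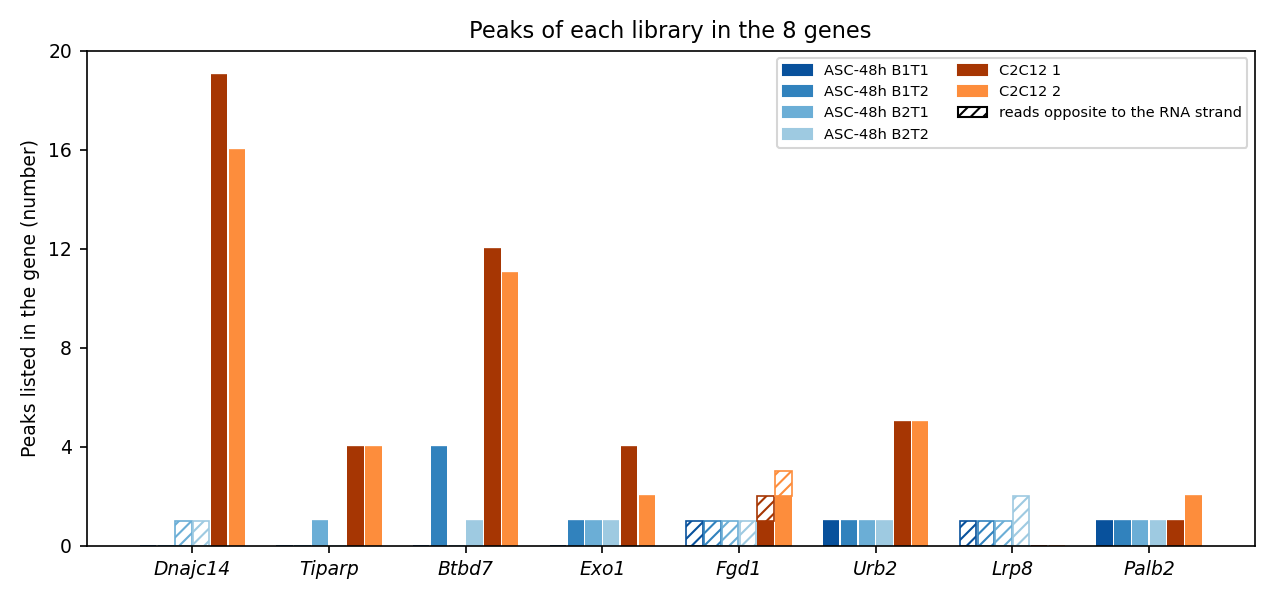
Number of peaks listed in each gene (y axis) in each of the 6 libraries (coloured bars), with hatched bars for peaks whose reads lay opposite to the RNA strand. Dnajc14 had 19 and 16 peaks in the C2C12 libraries and Btbd7 12 and 11, while no gene had more than 4 in an ASC-48h library, and Lrp8 had peaks in ASC-48h only, all hatched.

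In all, 118 peaks of the 6 libraries fell in the 8 genes, and those that overlapped on a strand formed 76 sites. C2C12 contributed 47 and 43 peaks and ASC-48h 4, 9, 7 and 8 in B1T1, B1T2, B2T1 and B2T2. These were 0.0411% to 0.0883% of the peaks of a library, without a separation of the cell types. Of the 76 sites, 6 were listed in both cell types and 2, in Fgd1 and Urb2, in all 6 libraries. Of the C2C12 replicate 1 peaks in the genes, 21 of 47 overlapped a replicate 2 peak (44.7%, 30.2 to 59.9), and over the whole library 29087 of 60540 did (48.05%).

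For the genes with a C2C12 shared peak on the RNA strand, the 20 nt under the highest such site are given 5′ to 3′ as the RNA reads, with DNA letters, to show what kind of sequence it was; capitals mark GGAC, the commonest core of the m6A consensus.
Dnajc14, exon 2, chr10:128244001-128244020: atgtcagcttGGACaagcag
Tiparp, exon 2, chr3:65335481-65335500: ccatcgtgtccaccagcaga
Exo1, exon 12, chr1:177831401-177831420: tcttcctgaggcctctgccg
Fgd1, exon 1, chrX:147481861-147481880: ctattaggagagctcgtgcc
Palb2, intron 4, chr7:129269781-129269800: ctaggctcaaccaaaaatat
Urb2, exon 3, chr8:126554161-126554180: ctctgcccttcgcctGGACa
Btbd7, intron 1, chr12:104105221-104105240: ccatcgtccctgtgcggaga
Of these sequences, the first 6 occurred once in mm9, and that of Btbd7 occurred in 24 exact copies. In Urb2 a second C2C12 shared site, in intron 2, had the same mean of 7 reads per bin. It is also the ASC-48h shared site of Urb2, and its sequence is given with those below.

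For the 4 genes with an ASC-48h shared peak, the 20 nt under it are given 5′ to 3′ on the strand of the reads, with runs of at least 5 G in capitals.
Lrp8, chr4:107544361-107544380, reads on +: GGGGGGGGGGGGGGGGGGGG
Fgd1, chrX:147489381-147489400, reads on +: GGGGGGGGGGGGGGGGGGGG
Urb2, chr8:126549261-126549280, reads on -: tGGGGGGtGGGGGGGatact
Palb2, chr7:129273001-129273020, reads on +: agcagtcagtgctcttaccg
The Lrp8 and Fgd1 peaks had the same 20-nt sequence, which occurred 4719 times in mm9. The sequences of Urb2 and Palb2 occurred 2 and 73 times. No ASC-48h shared peak in the 8 genes therefore lay on a 20-nt sequence found once in the genome: 0 of 4, with an upper bound of 60.2%. Of the ASC-48h shared peaks in exactly 1 protein-coding gene, 512 of 1014 did (50.5%, 47.4 to 53.6). The authors' alignment could place a read of a repeated sequence at several positions, so such a peak may not single out its gene as the source. Copies of 20 nt do not show where a longer read could align, and this was not tested.

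Over all ASC-48h library peaks in the 8 genes, 3 of 28 lay on sequence of 1 copy (10.7%, 2.27 to 28.2), where 28575 of 45700 peaks of those libraries did (62.5%, 62.1 to 63.0). The 28 peaks are not separate observations, since 16 of them are the 4 shared sites seen in 4 libraries each. Of the rest, 4 peaks of B1T2 and 1 of B2T2 lay in 1 stretch of Btbd7. The same Exo1 site was listed in B1T2, B2T1 and B2T2, and the same Dnajc14 site in B2T1 and B2T2. In C2C12, 63 of 90 library peaks in the genes lay on sequence of 1 copy (70.0%, 59.4 to 79.2). Among C2C12 shared peaks it was 16 of 21 (76.2%, 52.8 to 91.8), beside 14577 of 20096 in exactly 1 protein-coding gene (72.5%).

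**Figure D2:**
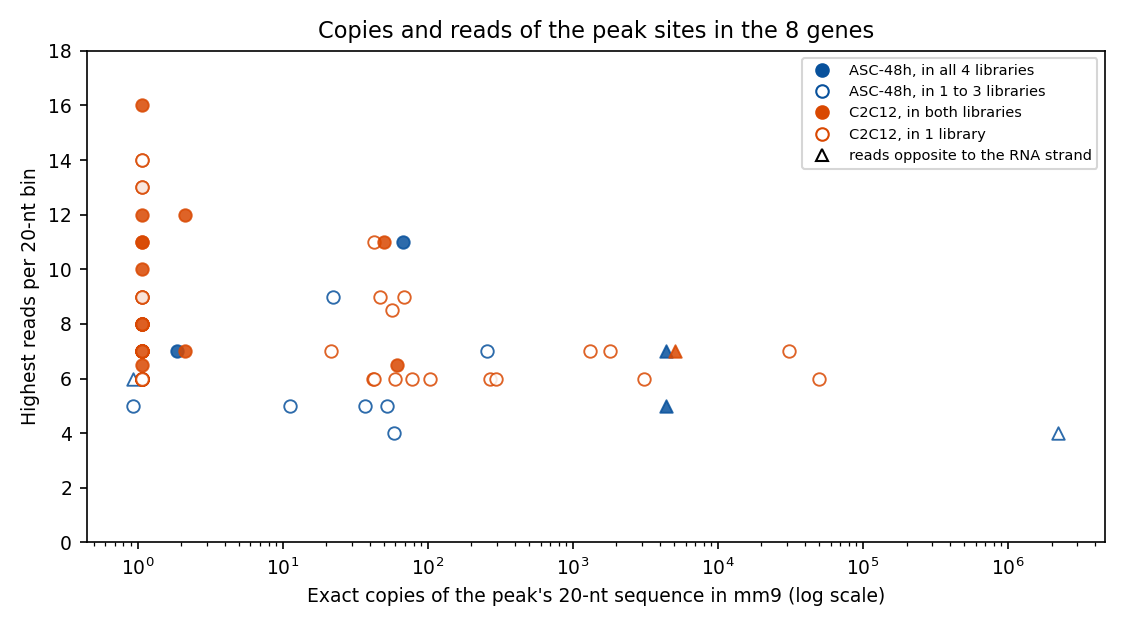
Each point is a site in 1 of the 8 genes in 1 cell type, placed by the exact copies of its 20-nt sequence in mm9 (x axis, log scale, cell types set slightly apart) and its highest reads per 20-nt bin (y axis). All 4 filled ASC-48h points (in all 4 libraries) lie at 2 copies or more, and the filled C2C12 points lie mostly at 1 copy, up to 16 reads per bin.

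Strand was counted over the same peaks. In C2C12, 88 of 90 library peaks in the genes lay on the RNA strand (97.8%, 92.2 to 99.7), and both exceptions were the Fgd1 peak on the run of G. Of the C2C12 shared peaks, 20 of 21 did (95.2%, 76.2 to 99.9). In ASC-48h, 17 of 28 did (60.7%, 40.6 to 78.5), with 5 peaks opposite to the RNA in Lrp8, 4 in Fgd1 and 2 in Dnajc14. Of the ASC-48h shared peaks in the genes, 2 of 4 lay on the RNA strand (50%, 6.76 to 93.2). Of all ASC-48h shared peaks in exactly 1 protein-coding gene, 596 of 1014 did (58.8%, 55.7 to 61.8).

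Runs of at least 10 G on the read strand within 20 nt of the peak were found at 2 of the 76 sites, in Lrp8 and Fgd1. As these sites were listed in every ASC-48h library, they made up 8 of the 28 ASC-48h library peaks (28.6%, 13.2 to 48.7), 2 in each library, and 2 of the 90 C2C12 peaks (2.22%). Counted over shared peaks, 2 of 4 ASC-48h peaks in the genes lay on such a run (50%, 6.76 to 93.2). For C2C12 it was 1 of 21 (4.76%, 0.12 to 23.8). Of all shared peaks in exactly 1 protein-coding gene, 474 of 1014 did in ASC-48h (46.7%) and 348 of 20096 in C2C12 (1.73%). A run of at least 10 A on the read strand was found at 1 of the 76 sites. This was the Urb2 site in intron 2, with 15 A.

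Lrp8, also known as ApoER2, is a receptor of the LDL receptor family that binds reelin and apolipoprotein E. The gene spans chr4:107474866-107549445 on the plus strand. It had no peak in C2C12 replicate 1 or 2. In ASC-48h it had 1 shared site, with 5 reads per bin in each of the 4 libraries, which was the lowest value listed in B1T1, B1T2 and B2T1. The site lay in intron 19, 497 nt from the nearest splice site (here and below, of any annotated transcript of the gene), opposite to the RNA strand and at a run of 22 G. The only other peak, in B2T2 with 4 reads per bin, lay in intron 2, also opposite to the RNA strand, on a CA and TG repeat with 2397869 copies, where an annotated transcript of B230314M03Rik runs on the other strand. Lrp8 thus had no peak on the strand of its own RNA in any of the 6 libraries.

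The study's Lrp8 primers matched exon 18 and exon 20 exactly, and the annotated products were 419 nt with exon 19 and 242 nt without it. Exon 19 is 177 nt long, at chr4:107542617-107542793. No library had a peak in this exon or within 1000 nt of it. The run of G lay 1567 nt downstream of its end, between the primers.

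Palb2 (partner and localizer of Brca2) acts in homologous recombination. The gene spans chr7:129250776-129276460 on the minus strand. Its ASC-48h shared site lay on the RNA strand in intron 2, 167 nt from the nearest splice site, with 10 and 11 reads per bin in B1T1 and B1T2 and 5 and 6 in B2T1 and B2T2. Both libraries of B1 lay above both of B2, and the mean was 8 ± 3.54 reads per bin (SD, n = 2 biological replicates). It was also listed in C2C12 replicate 2, with 6 reads per bin, and not in replicate 1. This is the site with 73 exact copies.

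A separate site in C2C12, with 6 and 8 reads per bin in replicates 1 and 2 (7 ± 1.41, SD, n = 2), lay on the RNA strand on a sequence of 1 copy and was listed in no ASC-48h library. It falls in intron 4 of the transcript with the longest coding sequence and in the 3′ UTR of a shorter annotated transcript. The Palb2 primers matched exons 3 and 5. Between them lies exon 4, of 1395 nt, at chr7:129270563-129271957. The annotated products were 1688 nt with this exon and 599 nt in another annotated transcript, and the longer product less the exon is 293 nt. No library had a peak in exon 4 or within 200 nt of it. The C2C12 site lay 762 nt downstream of the exon, between the primers. The ASC-48h site lay 1043 nt upstream of it, outside the primers.

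**Figure D3:**
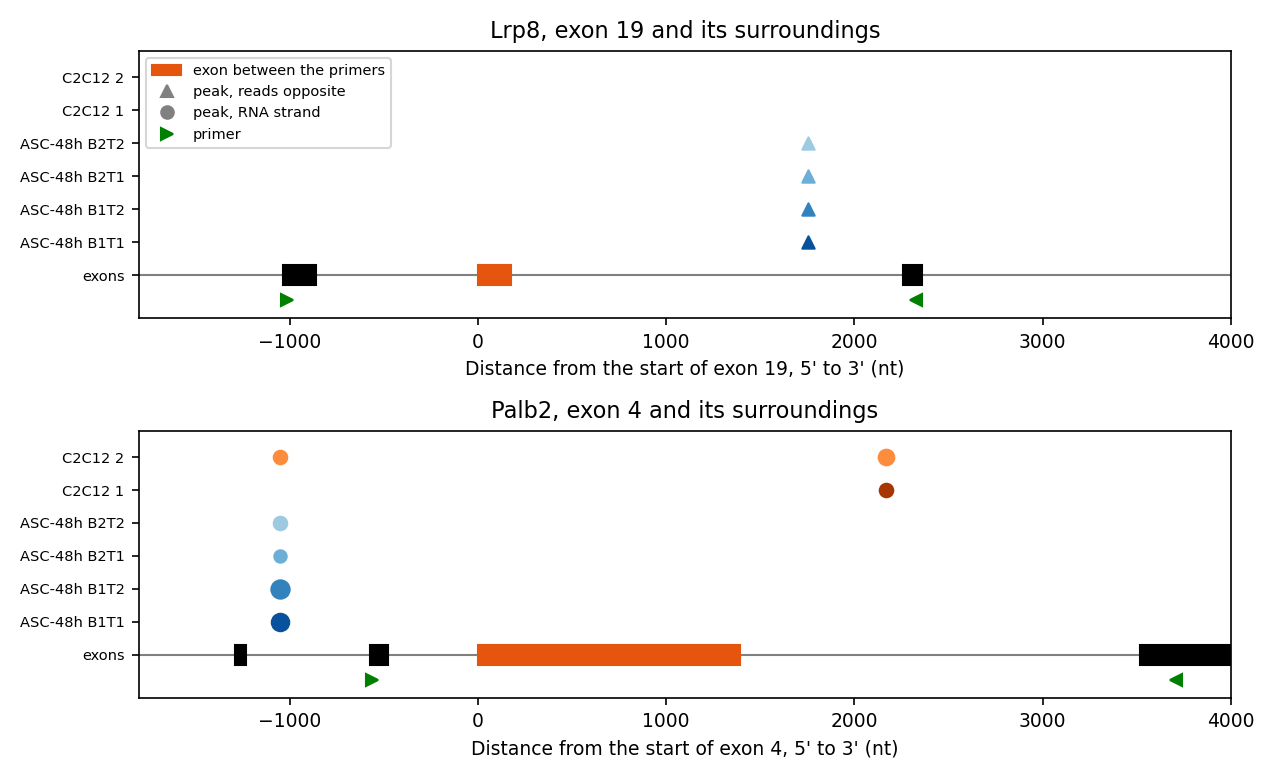
Peaks of the 6 libraries (rows) around Lrp8 exon 19 and Palb2 exon 4 (orange), against the distance in nt from the start of that exon in the direction of the gene, with larger symbols for more reads per bin, triangles for reads opposite to the RNA strand and green arrowheads for the primers. No symbol lies over either orange exon; the Lrp8 triangles (5 reads per bin each) lie 1567 nt past exon 19 and the Palb2 ASC-48h circles 1043 nt before exon 4.

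Fgd1 is an exchange factor that activates the small GTPase Cdc42. The gene spans chrX:147480693-147524064 on the plus strand. Its ASC-48h shared site held 7 and 6 reads per bin in B1T1 and B1T2 and 6 and 6 in B2T1 and B2T2 (6.25 ± 0.35, SD, n = 2), and the same site held 6 and 7 in C2C12 replicates 1 and 2. Reads per bin are not normalized for depth, so these values were not compared between the cell types. The site lay in intron 1, 6836 nt from the nearest splice site, opposite to the RNA strand in a run of 27 G. On the RNA strand Fgd1 had peaks in C2C12 alone, both in exon 1. The first, in the 5′ UTR, was shared, with 6 and 8 reads per bin (7 ± 1.41, SD, n = 2). The second, with 6 reads per bin in replicate 2, lay in the coding part of exon 1, 8 nt from a splice site of another annotated transcript, with GGAC in its window.

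Urb2 is a nucleolar protein of ribosome biogenesis. The gene spans chr8:126545408-126572405 on the plus strand, wholly inside an annotated read-through gene of the same strand, Gm20388, from which its reads cannot be told apart. Its site in intron 2 was listed in all 6 libraries. It held 6 and 6 reads per bin in B1 and 6 and 7 in B2 (6.25 ± 0.35, SD, n = 2). In C2C12 it held 7 and 7. It lay on the RNA strand, 128 nt from the nearest splice site. The run of 15 A beside it is on the read strand and is U in the RNA. The intron 2 site was the Urb2 site in ASC-48h, and every other Urb2 peak was from C2C12. Those gathered in exon 3, which is 3331 nt long and holds 72.9% of the coding sequence: 3 peaks in each replicate at 5 sites, of which 1 was shared, at chr8:126554161-126554180 with 7 and 7 reads per bin and GGAC in its window. The remaining C2C12 peaks lay in exon 8 (6 reads per bin in replicate 1) and in the 3′ UTR of exon 9 (7 in replicate 2, on a sequence of 1233 copies).

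**Figure D4:**
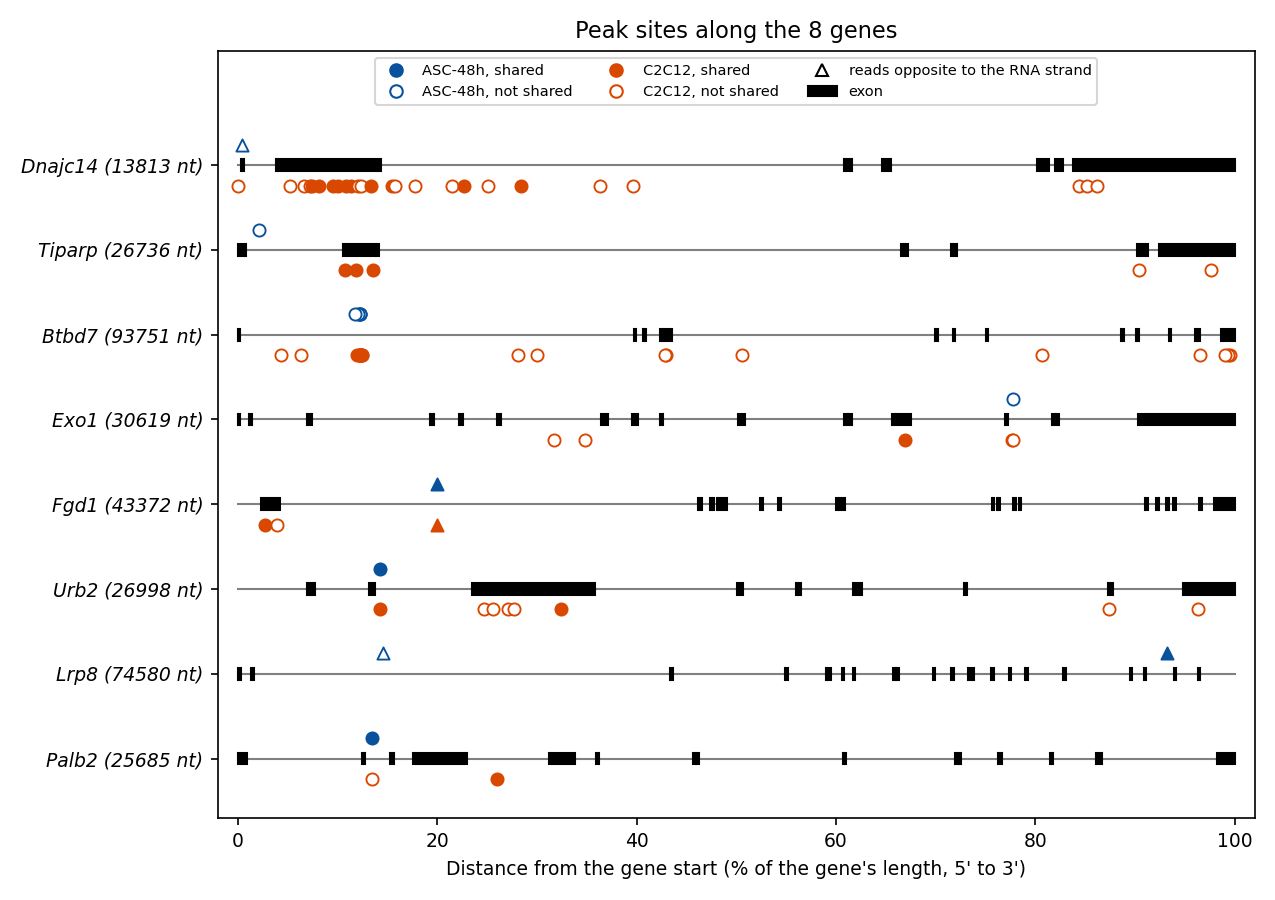
Peak sites along the 8 genes, each drawn from its start to its end (x axis, percent of the gene's length), with exons of the transcript with the longest coding sequence as black boxes. ASC-48h sites (blue) lie above the line and C2C12 sites (orange) below; filled symbols are shared sites and triangles have reads opposite to the RNA strand. The 4 filled blue symbols all lie off the exons, whereas 12 of the filled orange circles lie in coding exons.

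Dnajc14 is a co-chaperone of the DnaJ (heat shock protein 40) family in the membrane of the endoplasmic reticulum. It is the shortest of the 8 genes, with 13813 nt at chr10:128242690-128256502 on the plus strand, and had the most peaks. The C2C12 replicates listed 19 and 16 peaks, all on the RNA strand, 1 of them across the gene start, and 10 were shared, which is 0.724 per 1000 nt of gene. Of all protein-coding genes, 409 had more C2C12 shared peaks on the RNA strand. The 3 highest shared sites lay in exon 2 and in intron 2. That at chr10:128244001-128244020 in exon 2 held 16 and 11 reads per bin in replicates 1 and 2 (13.5 ± 3.54, SD, n = 2), with GGAC under it. That at chr10:128245821-128245840, in intron 2 and 1144 nt from the nearest splice site, held 13 and 8 (10.5 ± 3.54). At the third rank, 2 sites had equal means: chr10:128244521-128244540 in exon 2 held 11 and 8 (9.50 ± 2.12), and chr10:128246601-128246620 in intron 2 held 7 and 12 (9.50 ± 3.54) on a sequence of 2 copies. Replicate 1 was the higher at the first 3 of these sites and replicate 2 at the last.

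Exon 2 of Dnajc14, of 1453 nt, holds 66.9% of its coding sequence. It held 10 peaks of C2C12 replicate 1 and 9 of replicate 2, and 7 of the 10 shared sites. Intron 2 held 5 and 7 peaks and the other 3 shared sites. No peak lay in exons 3 to 6 or the introns between them, and exon 7 held 3 peaks of replicate 1, with 6 to 9 reads per bin, and none of replicate 2. The last of these, with 9 reads per bin, also overlapped Ormdl2, which ends on the other strand. In ASC-48h, Dnajc14 had no peak on the RNA strand. A peak opposite to it, with 6 and 6 reads per bin in B2T1 and B2T2 and not listed in B1, lay in the 5′ UTR of exon 1, 1 nt from a splice site of another annotated transcript. Its sequence occurred once in mm9, and Tiparp had the only other such site in ASC-48h.

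**Figure D5:**
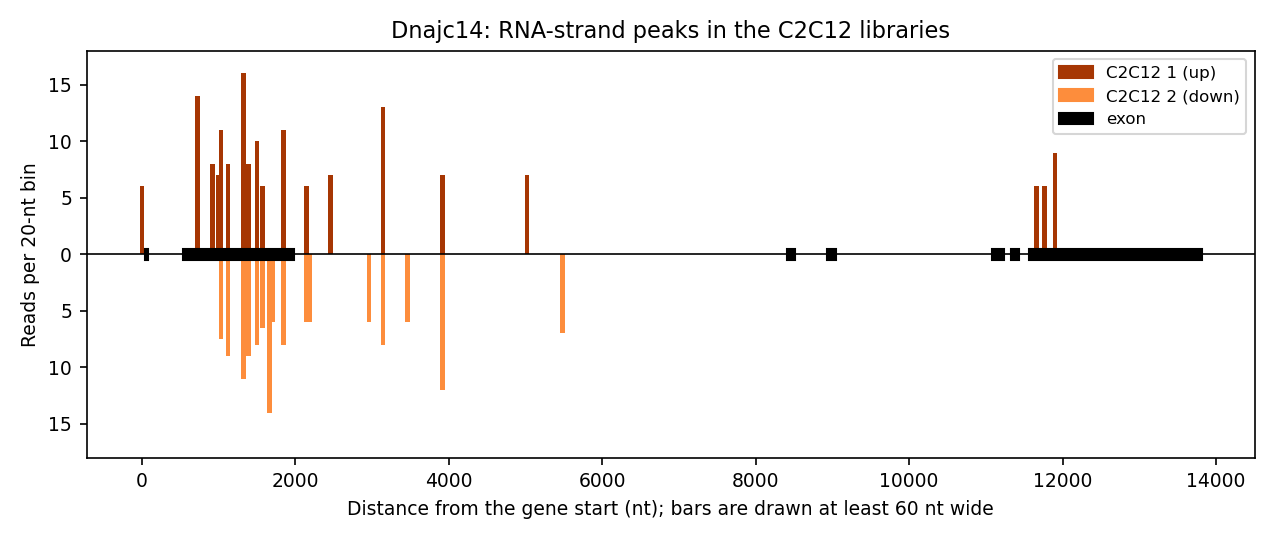
Reads per 20-nt bin (y axis) of the RNA-strand peaks of Dnajc14 against the distance in nt from the gene start (x axis), upward for C2C12 replicate 1 and downward for replicate 2, with exons as black boxes on the zero line. The bars gather over exon 2 and the first part of intron 2, with the highest at 16 and 14 reads per bin, and exon 7 has bars of replicate 1 alone.

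Exo1 is an exonuclease of mismatch repair and of the resection of broken DNA ends. The gene spans chr1:177810909-177841527 on the plus strand. Its C2C12 shared peak lay in coding exon 12, the exon with the longest coding stretch, 574 nt, and held 6 and 6 reads per bin, the lowest value listed in either replicate. The peak with the most libraries lay in intron 13 inside an annotated copy of the U6 gene, the spliceosomal RNA, which occupies chr1:177834676-177834782 on the same strand. It held 7 reads per bin in B1T2, 5 in B2T1 and 5 in B2T2, and 6 in C2C12 replicate 1, and was not listed in B1T1 or in C2C12 replicate 2. Its sequence, given as the RNA reads to show its overlap with U6, occurred 276 times in mm9.
Exo1, U6 copy in intron 13, chr1:177834721-177834740: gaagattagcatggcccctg
All ASC-48h peaks of Exo1 were at this site. The highest Exo1 value, 13 reads per bin in C2C12 replicate 1 alone, lay at chr1:177834661-177834680, across the upstream edge of the U6 copy, on a sequence of 1 copy. Intron 6 held a peak of 6 reads per bin in C2C12 replicate 1, on 2901 copies, and another of 6 in replicate 2, on 97 copies.

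Tiparp is a mono-ADP-ribosyltransferase, also called PARP7, that is induced through the aryl hydrocarbon receptor. The gene spans chr3:65332332-65359067 on the plus strand. All 3 of its C2C12 shared sites lay in exon 2, of 961 nt, which holds 46.7% of its coding sequence, and all lay on sequence of 1 copy. The highest held 10 and 12 reads per bin (11 ± 1.41, SD, n = 2), the site at chr3:65335201-65335220 held 8 and 6 (7 ± 1.41), and the site at chr3:65335941-65335980, with GGAC in its window, held 6 and 7 (6.50 ± 0.71). Each replicate had 1 further peak of 6 reads per bin, in the 3′ UTR (replicate 1) and in coding exon 5 (replicate 2). In ASC-48h there was 1 peak, in B2T1 with 5 reads per bin, in intron 1 where 4931440P22Rik runs on the other strand.

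Btbd7 is a BTB domain protein known from branching morphogenesis of epithelia. It is the longest of the 8 genes, with 93751 nt at chr12:104022866-104116616 on the minus strand. It had 12 and 11 peaks in the C2C12 replicates, 4 in B1T2 and 1 in B2T2, all on the RNA strand. Both of its C2C12 shared sites and all 5 ASC-48h peaks lay within 1 stretch of intron 1. The higher shared site held 7 and 11 reads per bin in C2C12 (9 ± 2.83, SD, n = 2) and the other 6.5 and 6 (6.25 ± 0.35). The highest ASC-48h peak held 9 reads per bin in B1T2.

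That stretch, chr12:104104799-104105705, aligned over 907 nt with 96.8% identity to positions 164 to 1089 of the spliced Rps2 transcript, in the same orientation as Btbd7. Rps2 is a protein of the small ribosomal subunit. The annotation used here lists no gene of its own at this place. All 12 peak sites in it lay on sequence with 12 to 64 exact copies, and each of their 15 bins was found letter for letter in an annotated Rps2 coding transcript. The match was not to Rps2 alone: each bin was found in coding transcripts of 4 to 9 genes, Rps2 among them. The site of the Btbd7 sequence printed above is one of the 12. Rps2 itself had 5 C2C12 shared peaks on the RNA strand within 3814 nt, where 21.9% of all protein-coding genes held at least 1. It had no ASC-48h shared peak, and the ASC-48h libraries listed 3, 7, 2 and 7 peaks in it (B1T1, B1T2, B2T1, B2T2, either strand). From which gene the reads of the stretch came was not tested. Outside the stretch, C2C12 replicates 1 and 2 listed 7 and 5 Btbd7 peaks, none of which was shared, and no ASC-48h library listed any. These peaks held 6 to 8 reads per bin, and 6 of them lay in exons 4, 11 and 12. Those in introns included sequences of 20, 251, 29079 and 46218 copies.

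Across the genes, the 20 C2C12 shared peaks on the RNA strand fell on coding exons in 12 cases (60%, 36.1 to 80.9), on introns in 6 (30%, 11.9 to 54.3), and on a 5′ UTR and a 3′ UTR in 1 case each. Among 18382 such peaks in exactly 1 protein-coding gene, 42.7% lay on coding exons, 32.2% on introns and 19.2% on 3′ UTRs. The intervals of the 8 genes include all 3 values. As 10 of the 20 peaks came from Dnajc14 and peaks are not replicates, no agreement is read from this comparison. The 2 Urb2 peaks also lie in Gm20388, so that comparison would leave them out. Of the 6 intronic peaks, 3 were in Dnajc14, 2 in the Btbd7 stretch that aligned to Rps2 and 1 in Urb2. All 12 coding peaks, from Dnajc14 (7), Tiparp (3), Exo1 (1) and Urb2 (1), lay in the exon with the longest coding stretch of their gene (100%, 73.5 to 100), where 4339 of 7720 did over all genes (56.2%). The median coding length of the exon was 1410 nt against 489 nt. As 10 of the 12 came from 2 genes, this describes those exons more than the list.

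GGAC lay within 20 nt of 3 of the 17 C2C12 shared RNA-strand peaks of 1 bin in the 8 genes (17.6%, 3.80 to 43.4), in Dnajc14, Tiparp and Urb2. Over all genes it was 3105 of 16362 (18.98%, 18.4 to 19.6). Both RNA-strand ASC-48h shared peaks lacked it. GGAC in a window is a match of letters and does not show that the A is methylated.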

How the data were processed

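The peak lists of 6 YTHDC1 LACE-seq libraries were used. The authors trimmed reads with cutadapt 1.15, removed those matching pre-rRNA, aligned the rest to mm9 with Bowtie 1.2.3, keeping several positions per read, and called peaks per library with Piranha in 20-nt bins. These peak settings are stated for ASCs; those for C2C12 are not given in the sources used here. The deposited signal of a peak is its reads per bin, not normalized, averaged where a peak has several bins. The p-value deposited beside it is Piranha's own within the library and served here for a stricter filter only. Library depth is unknown.

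Peaks overlapping a member's GENCODE vM1 interval by at least 1 nt on either strand were taken. Peaks of Urb2 also lie in Gm20388, so comparisons over peaks in exactly 1 protein-coding gene would leave them out. Copies are exact matches of a peak's 20-nt bins to NCBIM37 (mm9) on both strands, the highest where a peak has several bins; this is shorter than many reads. Exons are numbered in the transcript with the longest coding sequence, and exon or intron was called over all transcripts. Technical replicates were averaged before the SD. Primers were placed by exact match to annotated transcripts, and the Btbd7 stretch was aligned with blastn 2.17.0. Python 3.11.15, pysam 0.24.0, scipy 1.17.1, pandas 2.3.3, numpy 2.4.6, samtools 1.23.1 and matplotlib 3.10.9 were used. The overlap, run and annotation steps gave the known answer in 11 of 11 checks on simulated data with 2000 peaks.

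The members, lists and alternatives were chosen with earlier results of these data known. All 8 members are named, with the 3 highest shared peaks per cell type (or the highest peak of any library), and genes that overlap their peaks; Rps2 was added after its sequence matched. The 2 further gene lists that had been planned are not reported here. No test between groups was run: list sizes of unknown depth allow none between cell types. Dixon's ratio served only to flag libraries for a closer look.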

Additional observations from a re-analysis of the deposited data

Results flagged for a closer look

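In 3 genes, the number of peaks in 1 of the 4 ASC-48h libraries stood apart from the equal numbers in the other 3. Tiparp had 1 peak in B2T1 and none in the others. Exo1 had 0 peaks in B1T1 and 1, on the U6 copy, in each of the others. Lrp8 had 2 peaks in B2T2 and 1 in each of the others, the added one being the repeat with 4 reads per bin, a value that only this library lists. The flag was Dixon's ratio, the gap to the nearest count over the range of the 4. With 3 equal counts it is at its highest by construction whenever the fourth differs. With counts this small, a difference of 1 peak is therefore enough to set a library apart. T1 and T2 of 1 biological replicate are also not independent. The rate of about 1 in 20 groups that chance gives for continuous values was not tested for such counts.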

How the results depend on the processing

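The 7 counts and shares of the report were recomputed under the alternatives, and 52 of 71 values stayed within 1.5 times the count or within the interval of the share. With p of at most 0.0001, the C2C12 shared peaks in the genes fell to 6, in 2 genes, and the ASC-48h ones to 2, in 2 genes. Leaving out peaks on G runs left 2 ASC-48h shared peaks, in 2 genes, as did keeping RNA-strand peaks only, and as did at least 6 reads per bin. Leaving out repeated sequence left 0 ASC-48h shared peaks, in 0 genes. The share of C2C12 shared peaks on the RNA strand became 100% under the stricter p, without G runs and without repeated sequence, since the single opposite peak was the Fgd1 run of G. The share of ASC-48h library peaks on G runs became 0% on the RNA strand and 0% without repeated sequence. Without 1 C2C12 replicate, the count is that of the other library alone, 43 to 47. Without 1 ASC-48h library, the shared count was 4 to 5, the fifth being the U6 copy in Exo1 without B1T1.

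The results are limited by lists that start at 4 to 6 reads per bin, by an unknown depth and by 20-nt copies that do not show where a longer read can align. No paired analysis was made, since no test between groups was run.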
